A study of Mus musculus with 6 samples.

Results

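The USP genes are the mouse protein-coding genes whose GENCODE symbol is Usp followed by a number and, in some, letters. They were matched by Ensembl identifier to the counted genes, which gave 56 members among 53801 genes and among 21967 protein-coding genes. The study asked whether priming of melanoma cells with a volatile anaesthetic leaves a trace in the transcriptome of the tumours that grow from them. B16-F10 cells, a transplantable melanoma line of the C57BL/6 mouse, were injected under the skin of adult male wild type C57BL/6 mice, and pieces of the resulting tumours were sequenced. In the SEVO group (3 tumours) the cells had been kept in sevoflurane vapour before injection, and in the CTRL group (3 tumours) they had not. All 6 tumours came from the same line, and for each experimental group of the study a new frozen stock of cells was thawed. Whether CTRL and SEVO cells counted as separate groups in this sense is not stated. If they did, priming and stock cannot be told apart.

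USP enzymes form the largest family of deubiquitinases, proteases that take ubiquitin off other proteins or cut chains of it, and thereby spare a protein from the proteasome or change where it goes and what it binds. Nearly all members carry a papain-like catalytic domain, in which a cysteine close to the start of the domain attacks the bond. In melanoma and in other tumours the family is known for its action on p53 and its ligase, on growth factor receptors, on histones and on interferon signalling. The symbol rule also takes in Usp6nl, a GTPase-activating protein for Rab5 that is no deubiquitinase, and Usp39, a splicing factor with a USP fold that lacks the catalytic residues.

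The stretch of code around the catalytic cysteine is called the cysteine box. It is shown for the members on which the comparison turned and for the closest pair of large relatives. Each window has 39 bases, is written in the sense of the gene from the longest GENCODE reading frame that holds the box, and carries the cysteine codon in capitals.
Usp24: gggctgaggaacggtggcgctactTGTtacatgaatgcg
Usp15: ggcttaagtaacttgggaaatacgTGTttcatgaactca
Usp25: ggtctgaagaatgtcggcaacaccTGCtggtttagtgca
Usp34: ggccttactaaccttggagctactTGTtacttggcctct
Usp9x: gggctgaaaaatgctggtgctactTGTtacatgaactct
Usp9y: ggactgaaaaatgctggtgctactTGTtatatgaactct
The windows lie in coding exons on GRCm38. That of Usp24 is at chr4:106406433-106406471 on the plus strand in exon 43, and that of Usp34 at chr11:23426700-23426738 on the plus strand, also in exon 43. The window of Usp15 is at chr10:123146803-123146841 on the minus strand in exon 8 and that of Usp25 at chr16:77050513-77050551 on the plus strand in exon 5. Those of Usp9x and Usp9y are at chrX:13145195-13145233 on the plus strand in exon 31 and at chrY:1333728-1333766 on the minus strand in exon 33. A box was found in 54 of the 56 members and not in Usp39 or Usp6nl, with a search pattern that was widened once after the members it first missed had been seen.

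Between 723431 and 1348676 reads per tumour had been counted on genes, which was 2.06 to 4.61% of the reads that aligned to a single place. Of 10 melanocyte genes, Dct had 206 to 619 reads per tumour and Tyrp1 115 to 361. Lower ones were Mlana with 4 to 32, Oca2 with 2 to 15 and Gpr143 with 0 to 3. The labels give monocytes as the cell type but tumour as the source, and since RNA was taken from pieces of tumour the samples are described as tumour tissue. Of 12 monocyte and macrophage genes, Csf1r had 88 to 257 reads per tumour and Cd68 7 to 17, while Cd14 had 0 to 2, Ly6c2 0 to 4 and Adgre1 0 to 9, in files in which Gapdh too had only 17 to 42. Neither the strand protocol of the libraries nor the strand setting of the counting is given in the sources used here, so which strand the counted reads came from is unknown for every gene, Usp24 included. Tumours of the same group differed beyond sampling noise over the USP genes, with a chi-square per member of 2.10 to 13.9 for each pair, and none was counted as a repeat of another. No source says that the replicates are more than separate samples of a group, and p-values measure the spread between these tumours.

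The USP genes took few reads. The median was 10.5 reads per member and tumour, and 5 members had 3 reads or fewer in every tumour. Usp9y, the Y-linked relative of Usp9x, had no read in any of the 6, where 3 reads would have stood for 2.96 to 3.46 CPM (reads brought to the same library total with TMM factors). This limit covers counting error only. Of the 56 members, 31 passed the filter on low counts, about 11.2 CPM before TMM scaling in at least 3 tumours, and 25 did not. Among the 31, 14 were over this level in all 6 tumours, 4 in all CTRL but not all SEVO tumours, 2 in all SEVO but not all CTRL tumours and 11 in neither group completely.

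Levels between genes were compared as CPM per kb of exon. On this scale Usp34, reported to act on axin in Wnt signalling and with 18453 exonic bases the longest member, was the highest by its mean of 34.8 CPM per kb over the 6 tumours. Usp3 and Usp16, which remove ubiquitin from histone H2A, followed with 16.2 and 14.3 CPM per kb, then Usp30, a mitochondrial enzyme that opposes Parkin, with 12.9 and Usp18, which removes the interferon-induced modifier ISG15, with 12.7. The ranges of these last 4 over the tumours overlapped, so their order is not fixed by 6 tumours. Usp3 had 81, 95 and 94 reads in CTRL and 108, 153 and 100 in SEVO tumours, Usp16 84, 167 and 102 against 165, 146 and 95. Usp30 had 48, 91 and 43 reads in CTRL and 93, 106 and 63 in SEVO, and Usp18 had 40, 26 and 20 against 49, 34 and 31. Groups overlapped in reads for Usp16, Usp30 and Usp18, and stood apart in reads, though not in CPM, for Usp3.

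At the other end, the tested members with the lowest level per length were Usp29, an imprinted gene, with 0.64 CPM per kb, Usp15, which acts in TGF-beta signalling, with 1.07, and Usp48 with 1.36. The shortest member, Usp17lb (1561 exonic bases), had 4, 0 and 0 reads in CTRL and 2, 0 and 0 in SEVO tumours. Usp34 alone took 20.9, 47.8 and 24.3% of all USP reads in CTRL and 43.7, 40.5 and 40.9% in SEVO tumours, so CTRL tumours 1 and 3 stood below the other 4 tumours in this share.

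**Figure D1:**
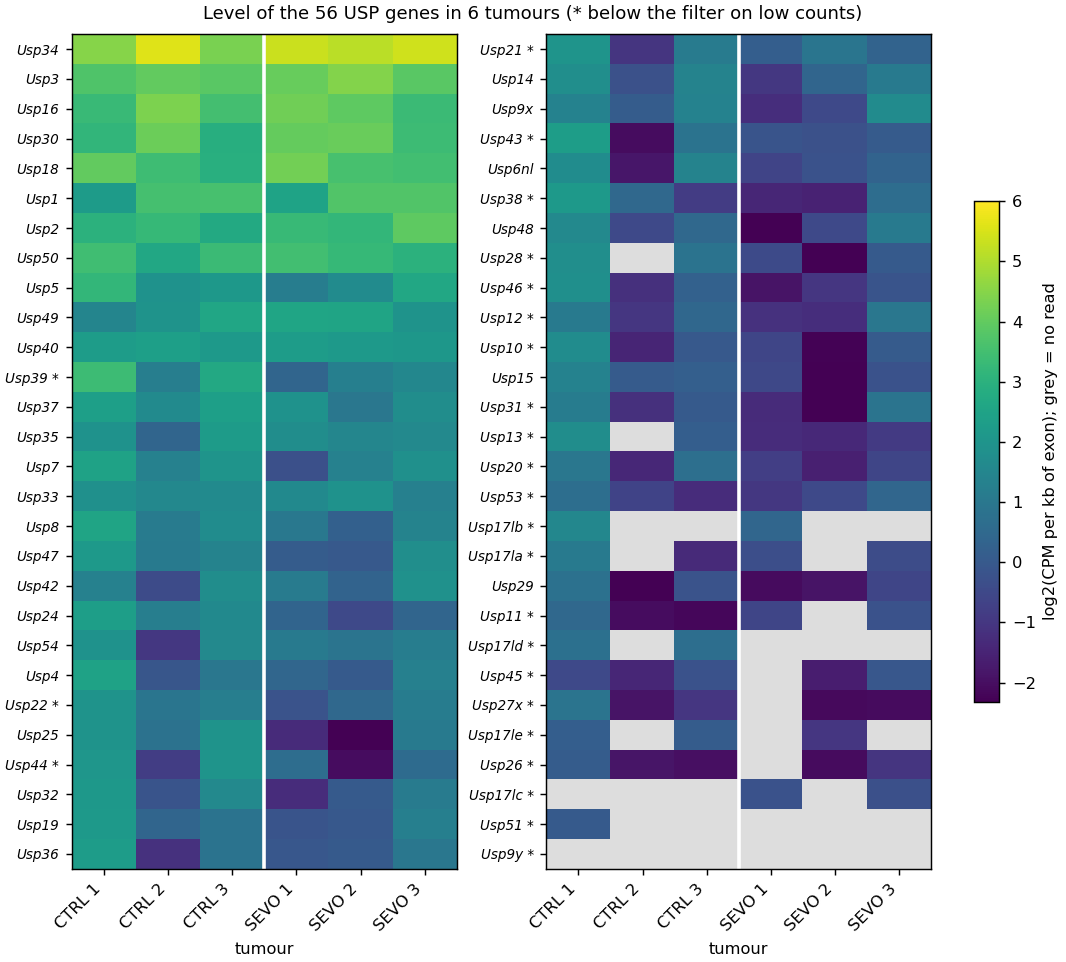
Level of each of the 56 USP genes (rows, ordered by mean level, italics) in each tumour (columns) as log2 CPM per kb of exon, with grey for no read, values below 0.2 CPM per kb drawn in the darkest colour, and an asterisk for the 25 genes below the filter. Usp34 leads in every tumour, and CTRL tumour 1 is brighter than the others over most of the lower rows.

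Over all 56 members, the USP genes held 0.131, 0.223 and 0.139% of the counted reads in CTRL tumours and 0.187, 0.181 and 0.213% in SEVO tumours. The group means were 0.164% ± 0.051 and 0.194% ± 0.017 (SD, n = 3), which overlapped. The counted total itself differed in make-up, since the predicted genes Gm10800 and Gm10801 held 49.0, 1.31 and 35.5% of it in CTRL and 7.97, 8.71 and 18.7% in SEVO tumours. Without these 2 genes the USP share was 0.233% ± 0.022 in CTRL and 0.221% ± 0.035 in SEVO tumours (SD, n = 3), and the order of the means was turned round.

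The comparison of SEVO with CTRL asked which USP genes kept a difference from priming through tumour growth. With the cut-offs that the study's methods give, an unadjusted p under 0.02 and a 1.5-fold change, 1 of 31 tested members passed in edgeR's quasi-likelihood test, Usp24, which was lower in SEVO. Of all 7561 tested genes 1.04% passed in either direction, 0.939% as lower and 0.106% as higher, and of the 5231 tested protein-coding genes 1.36% passed as lower. No member passed an adjusted p of 0.05 in edgeR (background 0%), where the lowest adjusted p of a member was 0.742. Usp15, Usp24 and Usp25, 3 of 31, had an unadjusted p under 0.05, against 4.36% of all tested genes. The study itself applied its cut-offs to results of DESeq2 and reported more genes as higher than as lower after priming. In DESeq2's Wald test 0 of 55 members with a read passed the thresholds of the study, where the background was 0.116%. Of all genes in that test 26 passed as higher and 23 as lower, whereas in edgeR most were lower. The count of members in edgeR rested on single tumours. Without CTRL tumour 2 it was 7 of 37 tested members, when 16.1% of all 8961 tested genes passed, without SEVO tumour 3 it was 4 of 33, when 5.70% did, and without SEVO tumour 2 it was 0 of 37.

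The log2 fold change (SEVO over CTRL) was below 0 in 21 and above 0 in 10 of the tested members, with a range from -1.78 to 0.49. Its median was -0.55 over the tested members, -0.02 over all tested genes and -0.33 over the tested protein-coding genes. This order depended on the filter: with every gene that had a read, the medians were -0.20 over 55 members, -0.38 over all genes and -0.37 over protein-coding genes. Since members could pass the filter through the group in which they were higher, the counts over the tested members are given as a description only. Scaling by DESeq2 size factors or by library size alone moved the median of all tested genes to 0.29 or 0.25 and the members' split to 17 below and 14 above 0, while the members' median stayed 0.47 or 0.39 below that of all genes on the log2 scale. The median of the members was -0.10 without CTRL tumour 1 and -1.17 without SEVO tumour 3.

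Usp24 (ENSMUSG00000028514.15; chromosome 4 from 106316213 to 106441322 on the plus strand of GRCm38), a large enzyme whose reported substrates include p53, had 56, 25 and 36 reads in CTRL against 15, 9 and 16 in SEVO tumours. Scaled, these were 62.6, 28.9 and 38.0 CPM in CTRL and 15.9, 8.9 and 16.1 CPM in SEVO tumours. The groups did not overlap in reads or in CPM, and the lowest CTRL value belonged to CTRL tumour 2. The log2 fold change was -1.66 (SE 0.45), with an unadjusted p of 0.00278 and an adjusted p of 0.742 from edgeR, and the exact two-sided permutation test of its CPM gave p = 0.1, the smallest that 20 splits of 3 against 3 tumours allow. As Usp24 was singled out with its earlier result known, these values describe it and are no independent test.

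The call of Usp24 was lost without SEVO tumour 2, with a log2 fold change of -1.33, in DESeq2's Wald test (-1.27) and without the filter (-1.08 in edgeR). It was still lower in SEVO in each of these. In bulk tissue fewer cells of a type and less RNA per cell cannot be told apart.

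Within each tumour Usp24 was also set against its own family, as its log2 CPM minus the median log2 CPM of the 31 tested members. This difference was 0.73, 0.67 and 0.44 in CTRL tumours and 0.09, -0.62 and -0.53 in SEVO tumours. Usp24 thus lay above the middle of its family in every CTRL tumour and below it in SEVO tumours 2 and 3, and the groups did not overlap. The means were 0.61 ± 0.15 and -0.35 ± 0.39 (SD, n = 3), a difference of -0.97, against a difference of -1.49 in its log2 CPM alone.

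**Figure D2:**
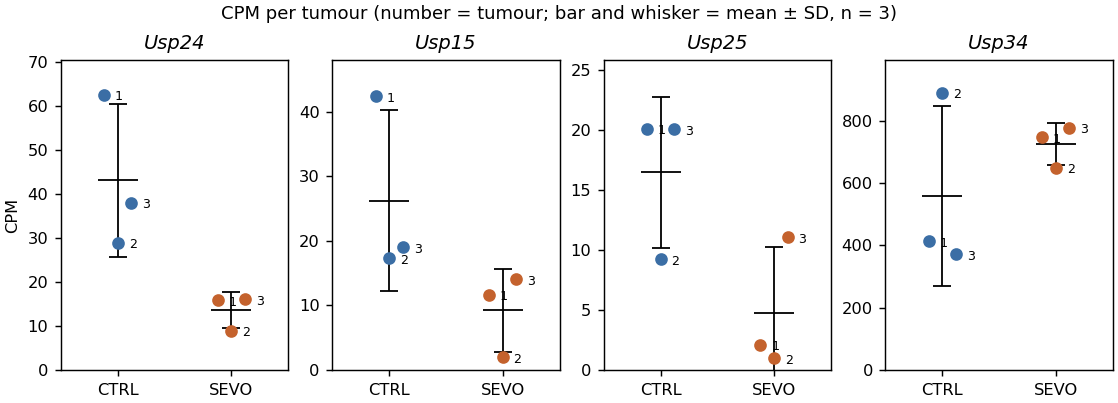
CPM of Usp24, Usp15, Usp25 and Usp34 in each tumour (points, with the number of the tumour), with the mean and SD of each group (n = 3) in black, the lower whisker of Usp25 in SEVO being cut at 0. The SEVO points of Usp24 lie between 8.9 and 16.1 CPM, below all CTRL points, while Usp34 has CTRL tumours on both sides of the SEVO tumours.

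Usp15 and Usp25 followed. Usp15 had 38, 15 and 18 reads in CTRL and 11, 2 and 14 in SEVO tumours, groups that did not overlap in reads or in CPM, and its log2 fold change was -1.50 (SE 0.66, unadjusted p = 0.0402 and adjusted p = 0.742 in edgeR, exact permutation p = 0.1). Usp25, an enzyme of innate immune signalling, had 18, 8 and 19 reads in CTRL and 2, 1 and 11 in SEVO tumours, and its log2 fold change was -1.78 (SE 0.80, unadjusted p = 0.0453 and adjusted p = 0.742 in edgeR, exact permutation p = 0.2). SEVO tumour 3 lay above CTRL tumour 2 in Usp25, so its groups overlapped, and its log2 fold change was -3.26 without SEVO tumour 3 and -1.23 without SEVO tumour 2. That of Usp15 was -0.92 without SEVO tumour 2 and -0.97 without CTRL tumour 1. Neither passed the thresholds of the study with all 6 tumours. Usp24 and Usp15 were the 2 of 31 tested members whose CPM did not overlap between the groups, where 8.56% of all tested genes did not overlap, 4.39% with SEVO lower, and 6.06% of protein-coding genes with SEVO lower. Below the filter, Usp27x also stood apart in CPM, with 7, 1 and 2 reads in CTRL against 0, 1 and 1 in SEVO tumours, counts too low to order the groups.

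The highest log2 fold changes belonged to Usp2, which acts on cyclin D1 and the circadian clock, to Usp30 and to Usp34. Usp2 had 35, 40 and 30 reads in CTRL and 44, 44 and 74 in SEVO tumours, with a log2 fold change of 0.49 (SE 0.35, adjusted p = 0.742, edgeR). The groups of Usp2 stood apart in reads but not in CPM, where CTRL tumour 2 (46.2 CPM) lay above SEVO tumour 2 (43.4 CPM). Usp30 had 0.39 (SE 0.38) and Usp34 0.38 (SE 0.43). Usp34 had 370, 771 and 352 reads in CTRL and 706, 657 and 774 in SEVO tumours, and CTRL tumour 2 sat with the SEVO tumours. Without CTRL tumour 2 the log2 fold changes of Usp34 and Usp30 were 1.02, past the thresholds, and 0.99, and without CTRL tumour 3 they were 0.18 and 0.21. That of Usp2 was 0.77 without CTRL tumour 2 and 0.26 without SEVO tumour 3.

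By role, 14 members act in chromatin or genome maintenance, and 7 of them were tested. Of these 3 had log2 fold changes below and 4 above 0, none past the thresholds. For this and the other roles the background is 1.04% of all tested genes past the thresholds. With so few members per role, the counts and directions are a description only. Usp7, which holds the balance between p53 and its ligase Mdm2, had 39, 17 and 29 reads in CTRL and 6, 20 and 28 in SEVO tumours (log2 fold change -0.78, SE 0.53). Usp3 and Usp16 had log2 fold changes of 0.29 and 0.07. Usp28, for comparison with its relative Usp25, was below the filter with 18, 0 and 10 reads against 4, 1 and 6.

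Of the 6 members with growth, p53, Myc or cell cycle substrates, 5 were tested, 3 with log2 fold changes below and 2 above 0. Usp24 was the member called, beside 1.04% of all tested genes. Usp10, a p53 deubiquitinase with the stress granule partner G3bp1, was below the filter, with 28, 3 and 9 reads in CTRL and 6, 2 and 10 in SEVO tumours. Of the 8 members of the endosome and of receptor trafficking, 4 were tested and all 4 had log2 fold changes below 0, from -1.16 to -0.06, with none past the thresholds. The median over the tested protein-coding genes was itself below 0, at -0.33, and was lower among longer genes. Usp8, which sorts the EGF receptor on endosomes, had 22, 8 and 13 reads in CTRL and 8, 5 and 11 in SEVO tumours (log2 fold change -0.95, SE 0.63), overlapping at the CTRL tumour 2 end. Usp9x, which protects Mcl1 among others, had 35, 14 and 37 reads in CTRL and 6, 11 and 49 in SEVO tumours (-0.50, SE 0.65), so that the highest and the lowest tumour were both SEVO. The value was -1.80 without SEVO tumour 3 and -0.0050 without SEVO tumour 1.

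The 3 members of mitochondria and organelles were all tested, with 2 log2 fold changes below and 1 above 0 and none past the thresholds. Of the 3 that work at the proteasome or on free chains, Usp14 and Usp5 were tested. Usp14, which trims chains at the proteasome, had 26, 6 and 21 reads in CTRL and 4, 11 and 18 in SEVO tumours (log2 fold change -0.80, SE 0.67), and Usp5, which takes apart free chains, had 38, 15 and 19 against 10, 15 and 29 (-0.55, SE 0.52). Both overlapped between the groups. Of 5 members of innate immunity and signalling 4 were tested, and 3 of these (Usp4, Usp15, Usp25) had log2 fold changes below 0 and Usp18 one of 0.28 (SE 0.40), none past the thresholds. Usp54, long classed as inactive, had -0.23 (SE 0.59), which turned to 0.22 with DESeq2 size factors and 0.42 with no filter, and Usp6nl had 24, 2 and 20 reads in CTRL and 5, 7 and 10 in SEVO tumours (-1.16, SE 0.76). Usp39 was below the filter, with 23, 5 and 15 reads against 3, 6 and 7.

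Usp40, picked out after its values were seen, was nearly flat, with 52, 53 and 51 reads in CTRL and 54, 54 and 50 in SEVO tumours and a log2 fold change of -0.11 (SE 0.30), a value that turned positive under other scalings (0.21 with DESeq2 size factors, 0.17 with library size alone).

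Exonic length went with the fold change across genes. Over all 7557 tested genes with a known length, the Pearson correlation of log2 fold change with log2 exonic length was -0.56 and Spearman's rho -0.61, over the tested protein-coding genes -0.47 and -0.50, and over the 31 tested USP genes -0.31 and -0.27. The value for the USP genes was not stable, since Pearson's coefficient was 0.13 with no filter, 0.083 with the fold changes of the Wald test, -0.12 without CTRL tumour 2 and -0.059 without SEVO tumour 2. These are correlations across genes that share 6 libraries, so no p is attached. The 5231 protein-coding genes were cut into 10 groups of similar size by exonic length. From the shortest (39 to 2228 bases) to the longest group (12947 bases and over), the median log2 fold change went from 0.18 to -0.98.

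Usp24, with 12350 exonic bases the 7th longest USP gene, fell in the group of 523 genes from 9816 to 12928 bases, whose median log2 fold change was -0.84 and of which 23 genes (4.40%) passed the thresholds of the study as lower, the highest share of the 10 groups. Usp24 lay 0.82 under this median on the log2 scale, and 27 genes of its group (5.16%) had a log2 fold change as low or lower, against 1.76% of all tested genes. Of the 6 USP genes longer than Usp24, 5 were tested, 4 of them (Usp9x, Usp15, Usp29, Usp47) had log2 fold changes below 0, and none passed the thresholds. Usp29 (28, 1 and 15 reads in CTRL, 4, 5 and 12 in SEVO) and Usp47 (54, 25 and 34 against 14, 14 and 47), an enzyme of base excision repair that is given here as a long member and was picked out after its values were seen, had log2 fold changes of -1.17 (SE 0.86) and -0.72 (SE 0.51). Usp34, the longest, lay 1.35 above the median of its length group.

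Set against genes of like length, the USP genes had no common direction. Relative to the median of their length group, 14 tested members were lower and 17 higher, with a median difference of 0.12 on the log2 scale. The member farthest below was Usp25 at -1.55, whose length of 5201 bases is moderate. With the trend of log2 CPM on exonic length taken out in each tumour, the median over the tested USP genes was 0.04. The split was 15 below and 16 above 0. Usp24 then had a log2 fold change of -1.01 (adjusted p = 0.89, edgeR) and was again the 1 of 31 members past the thresholds, when 1.20% of all tested genes passed.

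**Figure D3:**
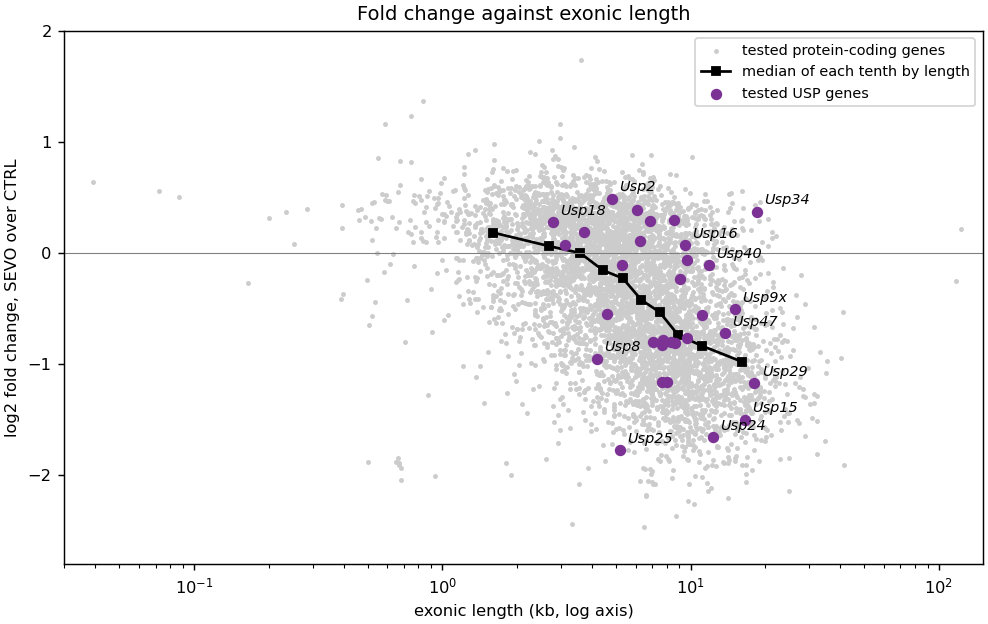
Log2 fold change (SEVO over CTRL) against exonic length on a log axis for the 5231 tested protein-coding genes (grey), with the median of each of 10 length groups (black squares, from 0.18 to -0.98) and the 31 tested USP genes (purple). Usp24 and Usp25 lie under the line of medians and Usp34 far above it.

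The values of single tumours moved across the family in a common way. Among the 55 members with a read, CTRL tumour 1 held the highest CPM in 38, including 22 of the 24 members below the filter. Of the 21 tested members with a log2 fold change below 0, CTRL tumour 2 was the lowest CTRL tumour in 20 and SEVO tumour 3 the highest SEVO tumour in 17. The median member had 3.69, 0.79 and 2.30 CPM per kb in CTRL and 0.86, 0.85 and 2.04 CPM per kb in SEVO tumours, so CTRL tumour 2 resembled SEVO tumours 1 and 2.

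The extremes among the tumours were shared by genes that these tissues are not known to use. The summed level of 1414 olfactory and vomeronasal receptor genes was 1.46, 0.0887 and 0.621 CPM per kb in CTRL and 0.196, 0.208 and 0.397 CPM per kb in SEVO tumours, highest in CTRL tumour 1 and lowest in CTRL tumour 2, the tumours in which the median member was highest and lowest as well. SEVO tumours 1 and 2 were in the opposite order in the 2 measures. Between 6 and 12 members per tumour lay at or below this level. Usp24 stood 3.48, 26.3 and 4.96 times above it in CTRL and 6.56, 3.46 and 3.28 times in SEVO tumours, ranges that overlapped between the groups. With this level as a covariate, added after the data had been seen, the median log2 fold change of the tested members was -0.04. Usp24 was again the 1 of 31 members past the thresholds, when 1.64% of all tested genes passed. The part of this level in the differences between the groups was not tested further.

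The markers of other cells moved between tumours too. The summed level was highest in CTRL tumour 1 for the endothelial, fibroblast, T and NK cell, neutrophil, keratinocyte and proliferation lists, in CTRL tumour 2 for the erythroid list, in SEVO tumour 1 for the monocyte and macrophage list, which was lowest in CTRL tumour 1, and in SEVO tumour 3 for the melanocyte list. Of 7 endothelial genes 2 were tested, both with log2 fold changes below 0 and neither called, and their summed level ran from 12.7 to 204 CPM in CTRL and from 23.7 to 75.3 CPM in SEVO tumours. Tek, Tie1 and Emcn were at 0 in CTRL tumour 2. The 6 fibroblast genes ran from 28.9 to 137 CPM in CTRL and from 13.8 to 56.2 CPM in SEVO tumours, with 1 tested and not called. The 10 proliferation genes ran from 234 to 380 CPM in CTRL and 93.1 to 325 CPM in SEVO tumours, 6 tested, all with log2 fold changes below 0 and none called. The 12 monocyte and macrophage genes ran from 196 to 259 CPM in CTRL and from 210 to 295 CPM in SEVO tumours. Of these 2 were tested, both above 0 and neither called. Csf1r, 873 bases of whose exons lie opposite exons of another gene, had 88 to 257 of the reads on this list. The order of the list followed Csf1r, which had 88 reads in CTRL tumour 1 and 257 in SEVO tumour 1. No other gene of the list had more reads in SEVO tumour 1 than in CTRL tumour 1. Mrc1 had 0 and 23 in these tumours, Ccr2 0 and 15. Of 10 melanocyte genes 8 were tested, all with log2 fold changes below 0 and none called, at a summed 1171 to 1217 CPM in CTRL and 573 to 1581 CPM in SEVO tumours. Of the T and NK cell list 1 gene and of the erythroid list 2 genes were tested and not called, and no gene of the neutrophil and keratinocyte lists passed the filter. The part of these cells in the values of the USP genes was not tested.

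The unknown strand bears on all USP values. The files hold more reads per length on mt-Nd6 (1166 CPM per kb), encoded on the light strand of mitochondrial DNA, than on mt-Co1 (425 CPM per kb), and the ubiquitin gene Ubb had 2 to 6 reads. If stranded libraries had been counted with the setting for the other strand, each value given for a USP gene, that of Usp24 included, would be one of its opposite strand, and this was not tested. Each USP gene was therefore set beside the genes on its opposite strand. In 18 of 56 members an exon overlapped an exon of a gene on the other strand, with 25 such partners in all, and in 13 members a partner was higher per length than the member itself.

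The widest gaps were those of Usp38, Usp33 and Usp46. Usp38, below the filter at 1.46 CPM per kb, shares 1174 exonic bases with the antisense gene Gm9725, which had 82.5 CPM per kb. Usp33, which acts on trafficking receptors, had 3.18 CPM per kb, and the unverified loci Gm43857, Gm42967 and Gm43859 opposite its exons had 147, 87.2 and 79.4. Usp46, which works with Wdr48, had 1.15 CPM per kb and Usp46os2 on the other strand had 51.8. Reads of Usp33 were level over the tumours, with 31, 25 and 29 in CTRL and 28, 37 and 24 in SEVO (log2 fold change -0.06, SE 0.37, which turned to 0.30 with DESeq2 size factors).

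The highest USP gene was among them. Usp34 shares 2137 exonic bases with Ahsa2, an Hsp90 co-chaperone gene, which had 150 CPM per kb and 300, 813 and 503 reads in CTRL against 747, 944 and 551 in SEVO tumours. Both genes were lowest in CTRL tumours 1 and 3 and higher in CTRL tumour 2. Usp14 shares 2169 exonic bases with Thoc1 (29.3 CPM per kb), a gene of mRNA export. If counting ignored strand, reads on the shared bases could not be assigned to 1 gene of a pair. This makes the values of the 18 members uncertain in addition. Usp24 and Usp25 had no exon opposite another gene, and Usp15 shared 169 bases with Gm4129 (6.34 CPM per kb).

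**Figure D4:**
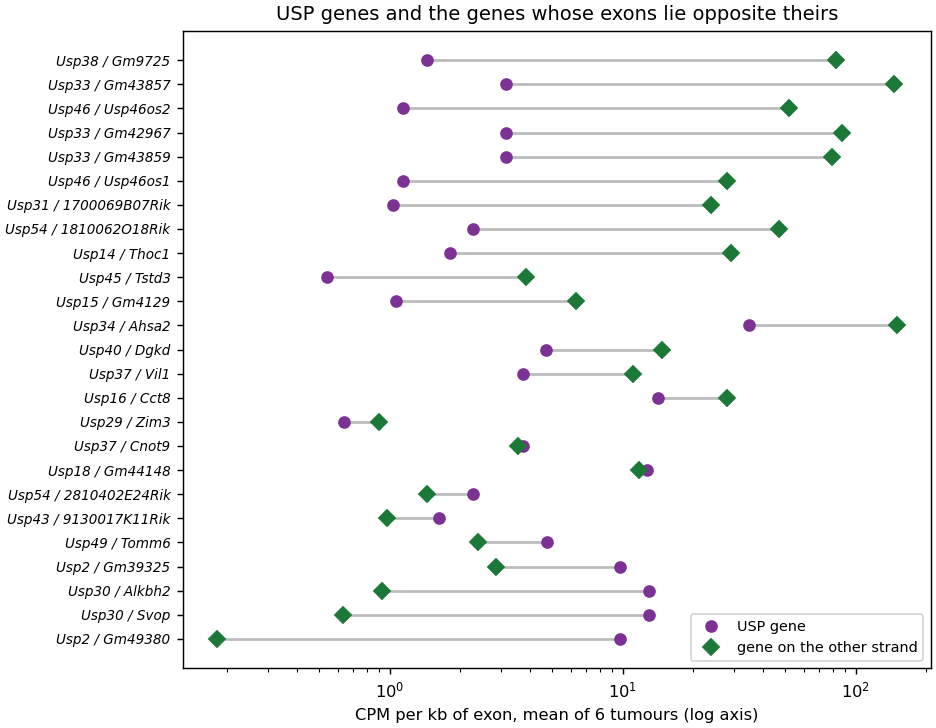
Mean level over 6 tumours in CPM per kb of exon (log axis) of USP genes (purple circles) and of the genes on the other strand whose exons overlap theirs (green diamonds), 1 line per pair. The gap is widest for Usp38 with Gm9725 and for Usp33 with Gm43857, and the pairs at the bottom have the USP gene higher.

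The fold change also differed with this overlap. The 13 tested members opposite an exon had a median log2 fold change of -0.06 and the 18 opposite none one of -0.77. Over the tested protein-coding genes the medians were -0.01 in 2479 genes opposite an exon and -0.60 in 2752 opposite none. The USP genes thus showed the split that all protein-coding genes showed, and Usp24, Usp25, Usp8 and Usp6nl were in the second set. Of the 14 partner genes that were tested, 0 passed the thresholds of the study. As 1.04% of all tested genes passed, this count says little about the partners. Usp8 and Usp50 lie across each other on opposite strands by span but share no exon, and had 2.86 and 9.37 CPM per kb. Usp50, named for this neighbour and not by the rule, had 30, 17 and 30 reads in CTRL and 33, 30 and 25 in SEVO tumours (log2 fold change 0.08, SE 0.39).

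Close relatives were compared in their coding sequences only, and how far they share reads was not tested. The coding sequences of Usp9x and Usp9y were 83.6% identical with a longest shared run of 39 bases, and those of Usp12 and Usp46 77.2% with a run of 20 bases. In contrast the Usp17-like genes, a cluster on chromosome 7, are near copies: Usp17lc and Usp17ld were 98.4% identical with a shared run of 812 bases. Their counts of unique reads are uncertain, and all 5 had 5 reads or fewer in every tumour. Within the other pairs, Usp4 had 43, 7 and 16 reads in CTRL and 11, 9 and 21 in SEVO tumours (log2 fold change -0.81, SE 0.64), Usp11 was below the filter, and Usp15 is described above. Usp35 had 18, 6 and 24 reads against 17, 15 and 16, with a log2 fold change of -0.10 (SE 0.56) that turned to 0.29 with DESeq2 size factors.

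In several pairs 1 partner was tested and the other too low. Usp5, Usp16, Usp33 and Usp54 passed the filter while Usp13, Usp45, Usp20 and Usp53 did not. Usp16 had 14.3 CPM per kb and Usp45 0.54. Usp12 and Usp46 were both below the filter with 2 to 9 and 2 to 25 reads per tumour, as were the SAGA complex enzyme Usp22 (4 to 17 reads) and its relatives Usp27x (0 to 7) and Usp51 (0 to 2).

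The other genes of the pathway were taken from a list of 61 genes of other deubiquitinase families, ubiquitin genes and partners of USP enzymes. Of these 24 were tested, 17 with log2 fold changes below and 7 above 0, and 0 passed the thresholds of the study in edgeR, beside the 1.04% of all tested genes. The genes listed under the JAMM family, not all of them proteases, had 6 of 7 tested genes below 0, and the partners of USP enzymes 6 of 8. The median over the 24 genes was -0.33, beside -0.33 over the tested protein-coding genes and -0.02 over all tested genes.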

How the data were processed

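RNA-seq was done on 3 CTRL and 3 SEVO tumours. The deposited values are raw counts per gene, which the authors made without normalization. According to the methods and the submitters' processing notes, reads were checked with FastQC, cleared of ribosomal RNA with SortMeRNA, trimmed with Trimmomatic 0.36, aligned to GRCm38.p6 with STAR 2.6.0c, sorted with SAMtools 1.8.3 and counted with HTSeq 0.9.1 on GENCODE. The HTSeq tally rows were left out of library sizes and tests. Between 2.06 and 4.61% of unique reads had been counted on genes.

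Of 53801 identifiers, 53706 were matched without version to a later GENCODE release on the same build for names, positions and exonic lengths (union of exons). Counts were fitted for all genes with edgeR 4.0.16 in R 4.3.3 (TMM, filterByExpr, quasi-likelihood test, group as the only factor), and p-values were adjusted by Benjamini-Hochberg over all 7561 tested genes. CPM used TMM-scaled library sizes, and log2 CPM a prior count of 2. Standard errors came from the F statistic. The common dispersion was 0.158. Fits were tested on simulated counts. The exact permutation test used CPM.

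The members, the roles and the lists of other genes and markers were chosen with earlier results of these data known. Named were Usp24, members past the thresholds or not overlapping in CPM, the 3 highest and 3 lowest log2 fold changes, the 5 highest and 3 lowest levels per length, the longest and shortest, members with no read, close relatives, and 7 members with well-known roles. Others are said to be chosen after their values were seen. Single results of some other genes in the lists are not reported here. Alternatives changed the scaling, the filter, the test (DESeq2 1.42.0), the length trend, a replicate block, or left out each tumour in turn, and a receptor-level covariate was added after seeing the data. Same-numbered tumours deviated together with correlations of -0.40, 0.32 and 0.08, so the numbers were not taken to pair the samples.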

Additional observations from a re-analysis of the deposited data

How the results depend on the processing

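The count of USP genes past the thresholds of the study (1 of 31, beside 1.04% of all genes) was 0 in DESeq2's Wald test, 0 with no filter, 0 at 10 reads in every tumour, where Usp24 itself was not tested, 3 at an unadjusted p under 0.05 and 0 to 7 with each tumour left out: 7 of 37 without CTRL tumour 2, when 16.1% of all genes passed (Usp6nl, Usp15, Usp24, Usp25, Usp29, Usp34, Usp39; Usp34 higher), 4 of 33 without SEVO tumour 3, when 5.70% did (Usp9x, Usp24, Usp25, Usp47) and 0 without SEVO tumour 2. With the replicate number as a block it was 3 (Usp15 at -1.62, Usp24, Usp25 at -2.08), when 1.71% of all genes passed. As the same-numbered tumours did not deviate together in all 3 pairs, the block is given only here. No setting gave a member an adjusted p under 0.05, and the lowest was 0.0594 without CTRL tumour 2.

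The log2 fold change of Usp24 stayed negative in all settings. It was -1.74 to -1.29 with each tumour left out, -1.27 in the Wald test, -1.08 with no filter and -1.01 with the length trend removed. Its difference from the family median was -1.31 to -0.85 with each tumour left out and -0.70 with the length trend removed. The median of the tested members was -0.025 at 10 reads in every tumour, 0.041 with the length trend removed, -0.037 with the receptor covariate and -1.17 to -0.10 with each tumour left out, lowest without SEVO tumour 3 and highest without CTRL tumour 1. The correlation with exonic length was 0.083 in the Wald test, 0.13 with no filter, -0.0036 with the length trend removed and -0.30 to -0.059 with each tumour left out. The difference in USP share was -0.012 without Gm10800 and Gm10801 and 0.013 to 0.059 with each tumour left out. Of the other deubiquitinase and ubiquitin genes 1 of 24 passed with the length trend removed, when 1.20% of all genes did. At an unadjusted p under 0.05 it was 1 of 24, when 4.36% did. With each tumour left out 0 to 6 passed, 6 of 33 being without CTRL tumour 2, when 16.1% of all genes passed.

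Several log2 fold changes turned their sign in other settings. Most were near 0, but those of Usp9x (-0.50), Usp5 (-0.55), Usp4 (-0.81) and Usp29 (-1.17) were not. Without a filter the log2 fold changes were 0.47 for Usp33, 0.47 for Usp35, 0.37 for Usp40, 0.42 for Usp54 and 0.015 for Usp5. In the Wald test they were 0.30 for Usp33, 0.30 for Usp35, 0.21 for Usp40 and 0.24 for Usp54, with DESeq2 size factors 0.30, 0.29, 0.21 and 0.22, and with library size alone 0.25, 0.27, 0.17 and 0.21. With the length trend removed they were 0.48, 0.14, 0.41 and 0.40 for these, and 0.064 for Usp9x. With the receptor covariate Usp35 had 0.28, Usp54 0.61, Usp29 0.42, Usp4 0.039 and Usp16 -0.11. At 10 reads in every tumour Usp16 had -0.096 and Usp50 -0.16. With the replicate block Usp35 had 0.028 and Usp54 0.027. With each tumour left out, Usp16 ran from -0.12 to 0.60, Usp33 from -0.14 to 0.13, Usp35 from -0.35 to 0.34, Usp4 from -1.18 to 0.14, Usp40 from -0.099 to 0.079 and Usp54 from -0.56 to 0.23. Other members kept their sign with each tumour left out but moved widely, such as Usp9x (-1.80 to -0.0050), Usp48 (-1.96 to -0.092), Usp29 (-1.73 to -0.27), Usp47 (-1.48 to -0.35), Usp5 (-1.01 to -0.038), Usp7 (-1.20 to -0.30), Usp14 (-1.29 to -0.33), Usp6nl (-1.53 to -0.66) and Usp8 (-1.18 to -0.49). The causes were not tested. Over the single members, 161 of 194 alternatives that kept all tumours left direction and side of the threshold as they were. The members had a median of 10.5 reads per tumour, and their standard errors ran from 0.30 to 0.86 on the log2 scale. Depth alone did not set them, since Usp34 with 3630 reads in all had 0.43 and Usp40 with 314 had 0.30.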
